A study of Homo sapiens with 2 samples.

Results

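The 12 circular RNAs (circRNAs) described here came from 8 genes that encode ubiquitin ligases or parts of them, out of 1485 circRNAs in the table. A circRNA was taken when its host field, split at commas, held exactly 1 of RNF13, MIB1, FBXW7, FBXW11, FBXO11, HERC4, HUWE1 and KLHL8. All 8 genes had at least 1 circRNA, but they were chosen with earlier results of these data known, so this is no result. They were measured in SW620, an established line from a metastasis of a human colorectal adenocarcinoma. There were 2 libraries of RNA depleted of ribosomal RNA and digested with RNase R, which removes linear RNA. HD-SB was 1 library of cells given Hedyotis diffusa-Sculellaria barbata, a pair of medicinal herbs, at 1 mg/mL for 24 h. Control was 1 library of cells labelled only as control, with no vehicle named. With 1 library per group there is no replicate error and no test, and values that differ compare these 2 libraries rather than treated with untreated cells.

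Ubiquitin ligases, also called E3 enzymes, choose the proteins to which ubiquitin is attached, and a chain of ubiquitin often sends its target to the proteasome. RING ligases bring the ubiquitin-loaded E2 enzyme to the target, HECT ligases carry the ubiquitin on a cysteine of their own, and F-box and BTB-Kelch proteins are the parts of cullin complexes that recognise targets. In the colon this system sets the level of beta-catenin, MYC and Notch, and FBXW7 is a tumour suppressor often mutated in colorectal cancer. A circRNA forms when the end of an exon is spliced back to the start of the same or an earlier exon. Its abundance was read here as back-splice reads, those that cross this junction, so a value does not grow with the length of the circle.

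The HD-SB library held 11570 listed back-splice reads on 1475 circRNAs and the Control library 91 reads on 32 circRNAs. The lowest listed value was 2 reads in both libraries. An unlisted circRNA was read as having 0 or 1 read, although other filters of the authors could also have kept a circRNA off a list. In CPM, the reads per 1000000 listed reads of the library, 1 read was worth 86.4 in HD-SB and 10989 in Control. The colorectal epithelial markers checked gave circRNAs for 3 of 26 genes, none of them listed in Control. Single circRNAs of villin (VIL1, 18 HD-SB reads) and EPCAM (9 HD-SB reads) were among them. The 16 fibroblast and smooth muscle, 16 leukocyte and 10 endothelial markers gave none in either library. Because few genes of any kind give a listed circRNA, this is a weak check of the cells.

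The exons in each circle were found from the deposited span, since the deposited position of none of these circles coincided with the GRCh38 position of the exons it matched. For 10 of the 12 circRNAs, the distance from the first to the last base equalled exactly the distance between the start of an exon and the end of the same or a later exon of the host in GENCODE 29, and only 1 such pair of exons existed. Over the table, 1273 of 1403 circRNAs with an annotated host (90.7%) had such a pair. When 1 base was added to every span 40 had one, and when 1 base was removed 27 did. For both RNF13 circles, and for all 3 of MIB1, the deposited start differed from the start of the matched exon by the same number of bases, so the circles of a gene were placed alike. Deposited positions are printed below with no build. The 10 matched circles were made only of annotated exons by this reading, and whether an inner exon was skipped or an intron kept could not be seen in the files.

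The junction sequences of the circles of RNF13 and MIB1, the genes with reads in both libraries, are shown first, since their circles differ at a single end. Each line gives, 5′ to 3′ in the sense of the gene, the last 20 bases of the circle in lower case and then its first 20 bases in capitals, so that the change of case is the back-splice junction. The bases were read from the GENCODE 29 transcripts RNF13-201 (chromosome 3, plus strand) and MIB1-201 (chromosome 18, plus strand), not from reads of these cells.
RNF13 hsa_circ_0067716, exon 5 to exon 3: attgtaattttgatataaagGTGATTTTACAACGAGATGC
RNF13 hsa_circ_0001346, exon 9 to exon 3: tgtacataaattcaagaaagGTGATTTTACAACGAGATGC
MIB1 hsa_circ_0008190, exon 6 to exon 5: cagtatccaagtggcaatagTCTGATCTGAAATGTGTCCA
MIB1 hsa_circ_0008741, exon 6 to exon 4: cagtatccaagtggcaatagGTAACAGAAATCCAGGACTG
MIB1 hsa_circ_0000835, exon 6 to exon 2: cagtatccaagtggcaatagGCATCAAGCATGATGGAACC

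RNF13 is a membrane-bound RING ligase of endosomes and lysosomes. Its 2 circRNAs were listed in different libraries. The longer circle, hsa_circ_0001346 (chromosome 3, 149563798 to 149639014), was not listed in HD-SB and had 6 reads in Control, 65934 CPM (24579 to 138004), where it had the most reads of the 32 listed. The shorter circle, hsa_circ_0067716 (149563798 to 149589941), had 3 reads in HD-SB, 259 CPM (53.5 to 758), and was not listed in Control. All intervals are 95% Clopper-Pearson intervals of counting error alone, and amplified reads are not independent molecules.

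Both RNF13 circles began at exon 3, as their identical capitals show, and differed in where they ended. The shorter one joined exons 3 to 5, of 130, 81 and 126 bases, and had a spliced length of 337 nt. The longer one ran on to exon 9 over 7 exons and 716 nt, out of a span of 75217 bp. Both hold the start codon of RNF13, which follows the first 16 bases of the circle. HD-SB thus listed the short form and Control the long form, but with 3 and 6 reads in all the other form could be present at 1 read in either library. If the long form had 0 reads in HD-SB, up to 259 CPM would be allowed, taking 3 reads as the limit for 0. If it had 1 unlisted read, the upper end of the Clopper-Pearson interval would be 481 CPM. For the short form in Control these limits are 32967 and 59711 CPM, so the Control depth could not show the short form at its HD-SB level.

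MIB1 encodes a RING ligase that ubiquitinates the Notch ligands Delta and Jagged, a step needed for them to activate Notch on a neighbouring cell. It had 3 circRNAs, the most of the 8 genes, with 13 reads in HD-SB and 3 in Control. Of all 1074 hosts that stood alone in a host field, 58 (5.40%) had 3 or more circRNAs, and the most was 7. The circle hsa_circ_0000835 (chromosome 18, 19345733 to 19359646) had 5 reads in HD-SB, 432 CPM (140.3 to 1008), and 3 reads in Control, 32967 CPM (6851 to 93332). It was the only circRNA of the 12 listed in both libraries. The circles hsa_circ_0008741 (19353585 to 19359646) and hsa_circ_0008190 (19358064 to 19359646) had 3 and 5 reads in HD-SB and were not listed in Control.

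Unlike those of RNF13, the 3 MIB1 circles shared their last exon and differed in the first. All ended with exon 6, which is 205 bases long, and began at exon 2 (679 nt), exon 4 (377 nt) and exon 5 (272 nt), so each shorter circle lay inside the longer ones. In HD-SB the longest and the shortest had 5 reads each. Only the longest, which begins at the exon after the first intron of 23959 bp, was listed in Control.

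**Figure D1:**
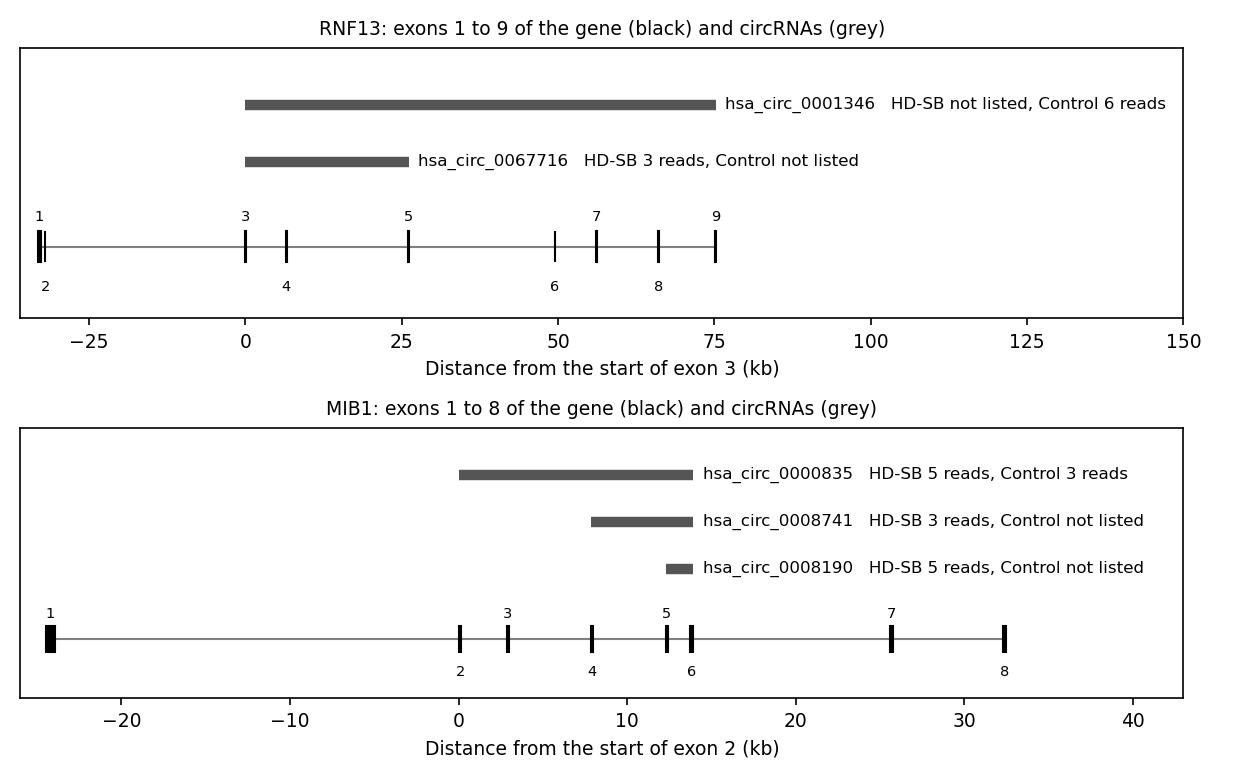
Exons (black boxes, numbered above or below the line) and circRNAs (grey bars, first to last base) of RNF13 and MIB1, by distance in kb from the start of the first circularised exon, with the reads of each circle in HD-SB and Control. The RNF13 circles share their start at exon 3 and the MIB1 circles share their end at exon 6, and in each gene the only circle listed in Control is the longest.

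Of the 4 genes here that encode targeting parts of cullin ligases, FBXW7 had the most reads. FBXW7 is the F-box protein that recognises cyclin E, MYC and Notch. Its circle hsa_circ_0001451 (chromosome 4, 153332455 to 153333681) had 8 reads in HD-SB, 691 CPM (299 to 1362), and was not listed in Control. It joined exons 3 and 4 of the only FBXW7 transcript that holds this pair, of 50 and 570 bases, into 620 nt that hold the start codon of that transcript after 119 bases. FBXO11, an F-box protein with BCL6 among its targets, had 4 HD-SB reads on hsa_circ_0006794 (chromosome 2, 48049357 to 48050499), which matched exons 12 and 13, 304 nt in all. KLHL8, a BTB-Kelch protein of cullin-3 complexes, had 3 HD-SB reads on hsa_circ_0002538 (chromosome 4, 88116476 to 88116842), a circle of exon 2 alone with 367 nt. Neither was listed in Control.

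FBXW11, the F-box protein also called beta-TrCP2, recognises phosphorylated beta-catenin and the NF-kappaB inhibitor. Its row was the least certain of the 12. It had 2 HD-SB reads, the lowest listed value, no read listed in Control and no circBase identifier (chromosome 5, 171421357 to 171424055). The host field held 4 names, 3 of them small RNAs, and its span of 2699 bp matched no pair of FBXW11 exons, so its host is not settled by these files.

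The HECT ligases HUWE1 and HERC4 had the highest HD-SB values of the 12. HUWE1, a very large ligase with MCL1, MYC and p53 among its targets, had 12 reads on hsa_circ_0007817 (chromosome X, 53641495 to 53642796), 1037 CPM (536 to 1811), and 3 reads on hsa_circ_0001922 (53672263 to 53681075). The circle hsa_circ_0007817 matched exons 21 and 22 of the 83 in HUWE1-203, 304 nt, and hsa_circ_0001922 matched no pair of HUWE1 exons. HERC4, a HECT ligase with RCC1-like repeats, had 10 reads on hsa_circ_0007113 (chromosome 10, 69785303 to 69804320), 864 CPM (415 to 1589), which matched exons 4 to 8, 682 nt. None of the 3 was listed in Control.

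**Figure D2:**
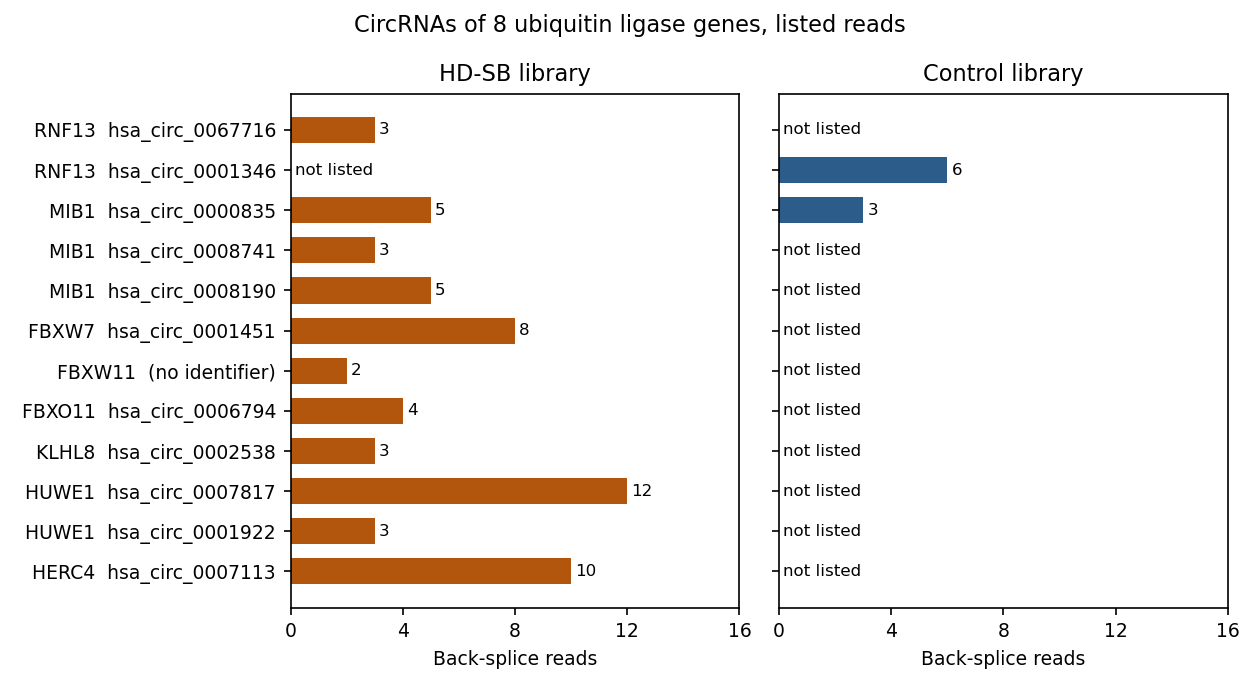
Listed back-splice reads of the 12 circRNAs in HD-SB (left) and Control (right), with bars from 0 and the read number beside each bar. HD-SB lists 11 of the 12 with 2 to 12 reads, and Control lists 2, with 6 and 3 reads.

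The order of the circles in HD-SB was HUWE1, HERC4 and FBXW7, with 12, 10 and 8 reads, and their intervals overlapped. The highest, HUWE1, ranked 162 among the 1475 HD-SB circRNAs, and the FBXW11 circle was in the lowest class of 2 reads. By gene, HUWE1 had 15 reads in HD-SB, MIB1 13, HERC4 10, FBXW7 8, FBXO11 4, RNF13 3, KLHL8 3 and FBXW11 2. The interval of HUWE1, 0.0726% to 0.214% of reads, overlapped those of the other genes down to RNF13 and KLHL8, each at 0.00535% to 0.0758%. It lay above that of FBXW11, at 0.00209% to 0.0624%. In Control, RNF13 had 6 reads, 6.59% (2.46 to 13.8), and MIB1 had 3 reads, 3.30% (0.685 to 9.33), also with overlapping intervals.

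Of the 12 circRNAs, 10 were listed in HD-SB only (83.3%), against 97.8% of all 1485. The remaining 2 (16.7%) were listed in Control, against 2.15% of the table, MIB1 in both libraries and RNF13 in Control only, against 1.48% in both and 0.673% in Control only over the table. Each of these kinds holds 1 of the 12. Summed over the 8 genes, 58 reads were 0.501% of HD-SB reads (0.381 to 0.648) and 9 reads were 9.89% of Control reads (4.62 to 17.9). The ratio was 19.7-fold lower in HD-SB (8.59 to 40.1). Scaling by the median ratio of the circRNAs listed in both libraries moved the log2 ratio of HD-SB over Control to 0.32, given without an interval. RNF13 gave 6 of the 9 Control reads, and without it the share was 0.475% in HD-SB (0.358 to 0.618) and 3.30% in Control (0.685 to 9.33), 6.94-fold lower in HD-SB (1.39 to 21.4).

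The direction of these ratios follows from which circRNAs were listed. The smallest value listed in Control was 21978 CPM, 21.2 times the highest HD-SB value of the 12, and 1 circRNA of the HD-SB library reached it. A circRNA listed in Control therefore had a larger share there unless its HD-SB value also reached 21978 CPM. By the interval of the ratio of shares, 2 of the 12, RNF13 hsa_circ_0001346 and MIB1 hsa_circ_0000835, were lower in HD-SB, against 30 circRNAs (2.02%) of the table. This call needs reads in Control, where 32 circRNAs were listed, so it nearly repeats the listing and is no further result. Even the highest HD-SB count, 373 reads, was too small for a call of higher against so few Control reads. That none of the 12 was higher, against 0% of the table, was therefore fixed in advance. For the 10 circRNAs listed in HD-SB only, the Control depth could show no difference of the size at stake. At the HD-SB share of the 8 genes, 91 reads would hold 0.456 reads of them.

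**Figure D3:**
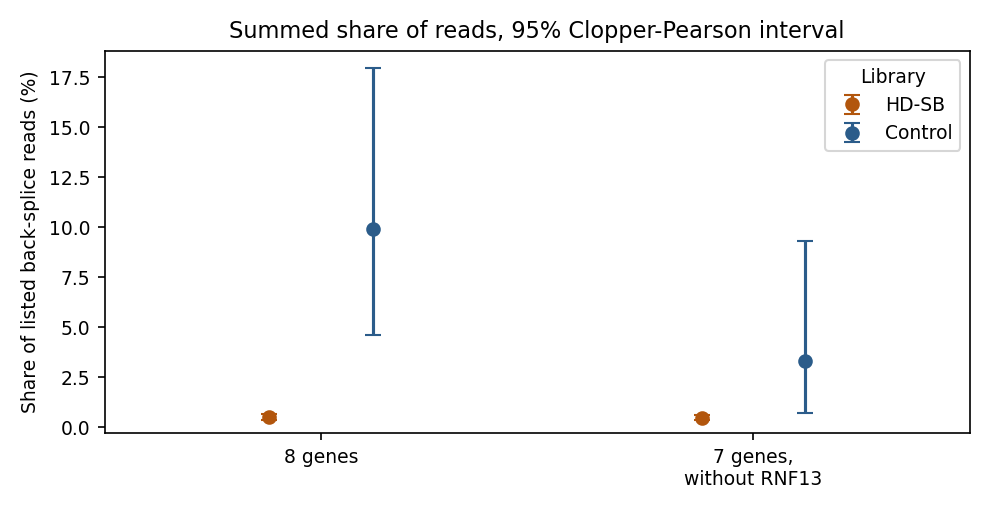
Share of listed back-splice reads in percent (vertical axis) summed over the 8 genes and over 7 genes without RNF13, for HD-SB (left of each pair) and Control, with 95% Clopper-Pearson intervals. Control falls to 3.30% from 9.89% when RNF13 is left out, while HD-SB stays near 0.5%.

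Among the hosts nearest to RNF13 in summed reads over the 2 libraries were CTBP2 (2 HD-SB and 3 Control reads) and MPP6 (4 HD-SB and 2 Control reads), against 3 HD-SB and 6 Control reads of RNF13. Their reads differed from those of RNF13 by 4 and 5 in all. For MIB1 they were GAPVD1, with the same 13 HD-SB and 3 Control reads, PRRG1 (13 and 2) and PAFAH1B2 (15 and 3). Likeness over 2 libraries is a matter of a few reads.

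The spans of the 12 circRNAs ran from 367 bp in KLHL8 to 75217 bp in RNF13, with a median of 4380.5 bp, against 4111 bp for the other 1473. The spliced length had a median of 372 nt over the 10 matched circles and 371 nt over the 1244 matched circles of other genes, and the range was 272 to 716 nt. The circles held 1 to 7 exons, with medians of 2.5 and 3. The median of the introns before the circle was 24343 bp, against 7406 bp for other genes, and that of the introns after it was 11688 bp, against 6636 bp. Long flanking introns are a known feature of circularised exons. The 3 MIB1 circles share the intron after them and the 2 RNF13 circles the intron before, so these are not 10 separate values. FBXW7 had the longest flanks, 122411 bp before and 61178 bp after, and HUWE1 had the shortest before, 1134 bp. The median GC content of the circles was 43.4%, against 50.0% for other genes.

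**Figure D4:**
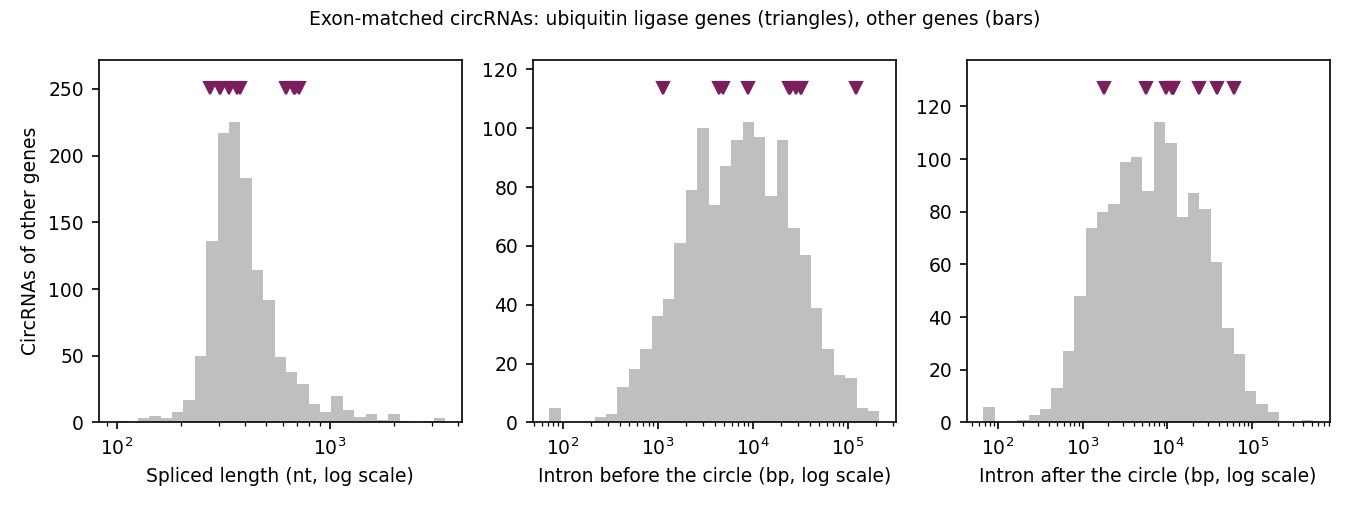
Spliced length in nt and length in bp of the introns before and after the circle (log axes), for the 10 exon-matched circRNAs of the 8 genes (triangles, height without meaning) and the 1244 of other genes (bars, number of circRNAs). The triangles lie within the range of the bars in each panel.

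Of the 10 matched circles, 6 were made of coding sequence alone (60.0%), against 80.4% of those of other genes. The remaining 4, both of RNF13 and those of FBXW7 and KLHL8, hold the start codon of the host (40.0%, against 15.6%). In all 4, the reading frame from this start codon was open up to the junction, continued across it and then met a stop codon. Up to the junction it is host coding sequence, so it had to be open there. The longest frame across the junction began at the host start codon in these 4, and in 167 of the 194 circles of other genes that hold one. The frame was 185 codons in FBXW7, 167 of them as in the host protein, 243 in the long RNF13 circle (233 as in the host), 151 in the short one (107) and 84 in KLHL8 (72). A circle of FBXW7 has been reported to be translated from such a frame. The frame is a property of the reference sequence, and whether any of these circles was translated in these cells was not measured. The spliced length was a multiple of 3 in none of the 10, against 37.5% of those of other genes. The other 6 circles, with no start codon of the host, had frames from an inner AUG across the junction of 31 to 223 codons. Over all 10 circles, the longest frame from any AUG across the junction had a median of 143 codons, against 155 codons for other genes. Each of the 10 frames ended at a stop codon. A frame that met none was counted up to 3 turns of the circle, and how many other genes had one was not tallied.

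The series names miR-204-5p as a target of another circRNA, so its seed was looked for in the 10 matched circles. The mature miRNA, from RefSeq (GRCh38.p14, chromosome 9, minus strand), is shown 5′ to 3′ with the seed, bases 2 to 8, in capitals.
hsa-miR-204-5p: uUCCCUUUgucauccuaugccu
The complement of the seed, AAAGGGA, was in none of the 10 circles, junctions included. Of matched circles at least as long, these 10 included, trimmed to each length and read without a junction, 3.50% to 7.22% held it. On the reverse strand its complement TCCCTTT was in 1 of the 10, HERC4, against 1.40% to 5.22% at the same lengths. The absence says only that these letters are not in these exons.

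Other genes of the ubiquitin system were read from 6 lists that did not include the 8 genes, chosen with earlier results of these data known. In these lists, reads beside a gene name are those of a single circRNA and not the sum of the gene. Together, 67 of their 519 genes gave 76 circRNAs, with 426 reads or 3.68% of HD-SB (3.35 to 4.04) and 3 reads or 3.30% of Control (0.685 to 9.33). RING and U-box ligases had 27 circRNAs from 21 genes and 130 HD-SB reads, led by RNF4, which targets SUMO-modified proteins (15 reads), and by PHRF1 and UHRF1, which reads DNA methylation (9 reads each). HECT ligases had 7 circRNAs and 40 HD-SB reads, led by UBE3A, the ligase lost in Angelman syndrome (12 reads), and WWP2 (7). Cullin-RING and APC/C subunits had 20 circRNAs, with 108 HD-SB and 3 Control reads. FBXO31, KLHL21 and FBXO9 led with 11 HD-SB reads each, and DCAF6, a substrate receptor of cullin-4 (hsa_circ_0009109), was not listed in HD-SB and gave the 3 Control reads.

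Outside the ligases, E1 and E2 enzymes had 6 circRNAs and 26 HD-SB reads, of which BIRC6 (6 reads on its highest circle) was also in the RING list. Deubiquitinases had 7 circRNAs and 50 reads, led by FAM105B (12), USP25 (11) and UCHL3 (10). Proteasome and p97 genes had 11 circRNAs and 81 reads, led by the 20S subunit gene PSMA7 (18), KIAA0368 (11) and the catalytic subunit gene PSMB5 (9). None of these 3 lists had a read listed in Control. Had they 0 reads there, a share of up to 3.30% would be allowed, and each unlisted circRNA could also hold 1 read, which is 1.10% of Control reads and above the HD-SB share of each list. A short list of 25 known targets of the 8 ligases gave 5 circRNAs from 3 genes, with 39 HD-SB reads and none listed in Control. Among the 5 were single circles of AURKA (11 reads), CDC25A (8) and JAG2, a Notch ligand (8).

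**Figure D5:**
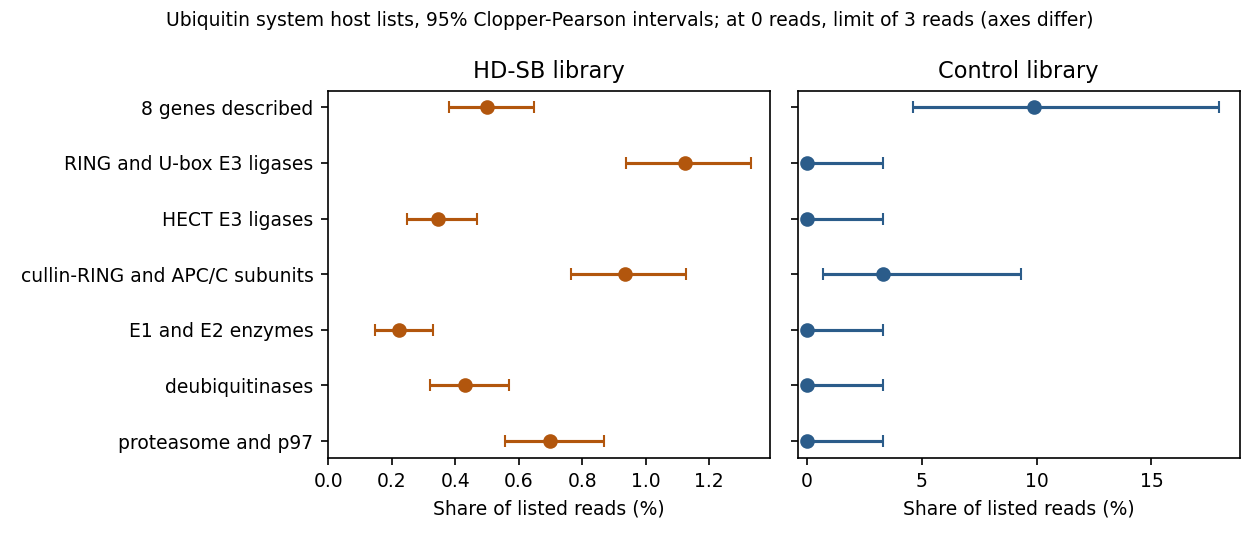
Share of listed back-splice reads in percent for the 8 genes and 6 lists of other ubiquitin system genes, in HD-SB (left) and Control (right, on a wider axis), with 95% Clopper-Pearson intervals and, where no read is listed, the limit of 3 reads, which holds for 0 reads and not for unlisted single reads. In HD-SB the 8 genes at 0.501% lie among the lists, which run from 0.225% to 1.12%, and in Control only the 8 genes and the cullin-RING list have reads.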

How the data were processed

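Back-splice reads were measured in 1 HD-SB and 1 Control library of SW620 cells. The submitters' processing notes name FastQC, HISAT2 2.1.0 and GRCh38 with no role, and neither the circRNA caller nor its filters are given there or in the labels. The deposited values are headed TPM but behave as CPM. Each column sums to 1000000, and dividing by a constant for each library turned 100% of listed values into whole reads, to within 0.01. The value 0.001 was treated as not listed. Shares have 95% Clopper-Pearson intervals, and a count of 0 has the limit of 3 counts. The ratio of shares has the same interval conditional on the sum of reads, with 0 and 1 tried for an unlisted circRNA. Steps were tested on simulated data (Python 3.11.15, pandas 2.3.3, scipy 1.17.1). The interval of the ratio was tested there with both libraries at the HD-SB depth and no listing limit. Its behaviour at the Control depth of 91 reads was not tested.

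Spans (end minus start plus 1) were compared with all exon pairs of each GENCODE 29 transcript of the host. Where several transcripts held the pair, the protein-coding one with the APPRIS principal tag, then CCDS, then the longest was used. No position was converted between builds. The genes, lists and alternatives were chosen with earlier results of these data known. All 12 circRNAs are named. For each list the 3 with most HD-SB reads and any listed in Control were looked up, and the hosts alike to RNF13 and MIB1 were those with the smallest summed difference in reads. Some items that these rules name are not reported here. The exon matching, reading frames and seed search were added after the files were seen.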

Additional observations from a re-analysis of the deposited data

How the results depend on the processing

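Of 44 alternative values, 20 tried another host rule that took the same circRNAs and so could not move. Of the other 24, 18 were rated as unchanged. For shares, numbers and spans this meant staying within the limits set for them. For the log2 ratio no limit of size was set. It had to keep its sign and, except with a pseudocount, an interval that excluded an equal share. Counting only circRNAs with at least 5 reads left 5 circRNAs in HD-SB and 1 in Control, raised the Control share to 37.5%, since 16 Control reads remained in all, and gave a median span of 7748.5 bp, by taking in fewer circRNAs. Without RNF13 the Control share was 3.30%. Scaling by the median ratio of circRNAs listed in both libraries multiplied Control by 0.0406 and moved the log2 ratio of HD-SB over Control to 0.32. That factor centres the circRNAs listed in both libraries. No interval is given for 0.32, so its sign was not read as a difference. The other log2 ratios stayed below 0, among them -2.79 without RNF13 and -5.21 with each unlisted circRNA of the 8 genes as 1 read. This last step left the unlisted circRNAs of other genes at 0. Most of the added reads fell in Control, so the lower ratio followed from the step and is no check of the direction. Leaving out FBXW11, whose host field has several names, was added after the data were seen and gave -4.35, against -4.30. No paired analysis was possible because the groups have a single library each. Precision is limited by Control, with 91 reads in all.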
